A study of Homo sapiens with 8 samples.

Results

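The human mitochondrial genome encodes 37 genes, and all of them had a row in the expression table, which lists 60664 genes. They were found by matching Ensembl identifiers to official symbols that begin with MT-. The group holds 13 protein genes, 2 ribosomal RNA (rRNA) genes and 22 transfer RNA (tRNA) genes. All 13 protein genes and both rRNAs reached 1 FPKM in 2 or more of the 8 libraries, the condition for testing, as did 9 tRNAs. Of the other tRNAs, 5 were above 0 in some library and 8 were at 0 in every library.

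Mitochondrial DNA is a small circle in which genes sit side by side with almost no bases between them, most of them on the heavy strand and MT-ND6 with 8 tRNAs on the light strand. POLRMT, the mitochondrial RNA polymerase, copies each strand into long precursors that run across many genes, and the tRNAs are then cut out, which frees the mRNAs and rRNAs between them. The mRNAs encode subunits of the respiratory chain and of ATP synthase, and most of them carry a poly(A) tail, whereas the rRNAs carry at most a short run of adenosines and mature tRNAs end in CCA. Their levels depend on the copy number of mitochondrial DNA, on transcription and on RNA decay, none of which was measured here.

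The libraries came from THP-1, an established human line of acute monocytic leukemia. Decitabine (DAC) is a nucleoside drug that inhibits DNA methylation. The parental cells and DAC-resistant cells, both with the genotype label WT, were each given DMSO (the solvent control) or 1 µM DAC for 6 days, with 2 libraries in each of the 4 groups. The resistant cells were a population selected by months of pulsed DAC followed by weeks without it, so they had met the drug before the experiment also in the DMSO group. The study treated these cells to compare the response to DAC in sensitive and resistant leukemia.

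An mRNA library kit was used on total RNA. Gene reads recovered from the table numbered 28670753 to 33370403 per library, and 1353 to 1945 of them per library fell on mitochondrial tRNA genes. THP-1 monocytic markers were present, with 7 of 8 at a mean of at least 1 FPKM and MEIS1 as the exception. Their summed level was 210.2 and 210.5 FPKM in parental DMSO libraries, 289.1 and 290.3 in parental DAC, 149.0 and 153.1 in resistant DMSO, and 161.6 and 165.7 in resistant DAC libraries. Single markers moved apart within this sum. SPI1, a myeloid transcription factor, made up 102 FPKM of it in parental DMSO and 127 FPKM in parental DAC libraries. With DAC in parental cells 5 of the 7 markers tested were called higher and 2 lower, beside 33.6% and 24.1% of all genes. LYZ rose from a mean of 12.03 to 47.8 FPKM and MPO from 1.36 to 5.39 FPKM, while CD33 and HOXA9 fell (-0.29 and -0.14 on the log2 scale). Between the lines 5 of the 7 were called lower in resistant cells with DMSO and 6 with DAC, beside 26.2% and 35.1% of all genes. HOXA9 was the 1 marker called higher in resistant cells than in parental ones (0.21 with DMSO, 0.58 with DAC), beside 31.3% and 32% of all genes. No T cell, erythroid or epithelial marker had a mean of 1 FPKM over the 8 libraries, although in single groups the epithelial KRT8 had 1.26 ± 0.205 FPKM (parental DAC) and the erythroid HBB 1.55 ± 1.97 FPKM (resistant DMSO, SD, n = 2). The part of this difference in cell state in the results below was not tested.

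The genes are so closely packed that a read can lie in several of them. The sequences here are from the hg38 reference and show genes that overlap or adjoin, and the tRNA genes with the most reads. How a read that lies in several genes was counted was not given in the sources used here. MT-ATP8 and MT-ATP6, whose products are subunits of ATP synthase, share 46 bases, marked in capitals with 12 bases on either side (chrM:8515-8584, plus strand).
MT-ATP8 and MT-ATP6: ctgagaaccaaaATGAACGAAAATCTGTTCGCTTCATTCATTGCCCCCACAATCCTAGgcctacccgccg
MT-ND4L and MT-ND4, whose products are subunits of complex I, share 7 bases, marked in the same way (chrM:10748-10778, plus strand).
MT-ND4L and MT-ND4: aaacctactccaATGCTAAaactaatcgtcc
The next stretch joins MT-RNR2 and MT-ND1, which were both lower in resistant cells without drug, with the tRNA gene MT-TL1 in capitals, the last 20 bases of MT-RNR2 before it, and 2 spacer bases and the first 20 bases of MT-ND1 after it (chrM:3210-3326, plus strand).
MT-RNR2, MT-TL1 and MT-ND1: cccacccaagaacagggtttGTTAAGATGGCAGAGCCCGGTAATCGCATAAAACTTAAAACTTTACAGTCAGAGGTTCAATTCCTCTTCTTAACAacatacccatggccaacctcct
The tRNA genes with the most reads were MT-TP (chrM:15956-16023) and MT-TC (chrM:5761-5826), both on the minus strand and shown 5′ to 3′ in that direction.
MT-TP: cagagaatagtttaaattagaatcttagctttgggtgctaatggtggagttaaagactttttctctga
MT-TC: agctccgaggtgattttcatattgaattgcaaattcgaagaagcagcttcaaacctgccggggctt

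Mitochondrial genes took a large part of every library, and a smaller part in resistant than in parental cells. They held 8.69% and 8.36% of gene reads in the parental DMSO libraries, 9.67% and 9.30% in parental DAC, 6.57% and 6.72% in resistant DMSO, and 5.92% and 6.24% in resistant DAC. The 95% Wilson interval of the first, 8.68% to 8.70%, covers counting error only. The 4 groups did not overlap, and with 2 libraries against 2 the smallest p that an exact two-sided permutation test can give is 0.33. On the FPKM scale, which divides reads by gene length, the same genes made up 29.4% ± 0.740, 31.6% ± 0.733, 24.8% ± 0.324 and 23.0% ± 0.785 of the summed signal in that order (SD, n = 2). In bulk RNA fewer mitochondria, less RNA in each and more RNA from the nucleus cannot be told apart, nor can fewer cells of a type and less RNA per cell.

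Protein genes and rRNAs did not share this pattern equally. Protein genes held 6.10% ± 0.182 of reads in parental DMSO and 6.11% ± 0.185 in parental DAC libraries, and these groups overlapped. They held 5.17% ± 0.0834 in resistant DMSO and 4.52% ± 0.186 in resistant DAC libraries, below both parental groups. The rRNAs held 2.42% ± 0.0538 in parental DMSO and 3.37% ± 0.0740 in parental DAC, beside 1.47% ± 0.0167 in resistant DMSO and 1.56% ± 0.0452 in resistant DAC. Set against the reads on protein genes, rRNA reads came to 39.6% ± 0.3002 in parental DMSO, 55.2% ± 0.458 in parental DAC, 28.4% ± 0.135 in resistant DMSO and 34.5% ± 0.422 in resistant DAC libraries, a ratio that does not depend on how libraries were scaled. The exact permutation p was 0.33 for each pair of groups that did not overlap.

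**Figure D1:**
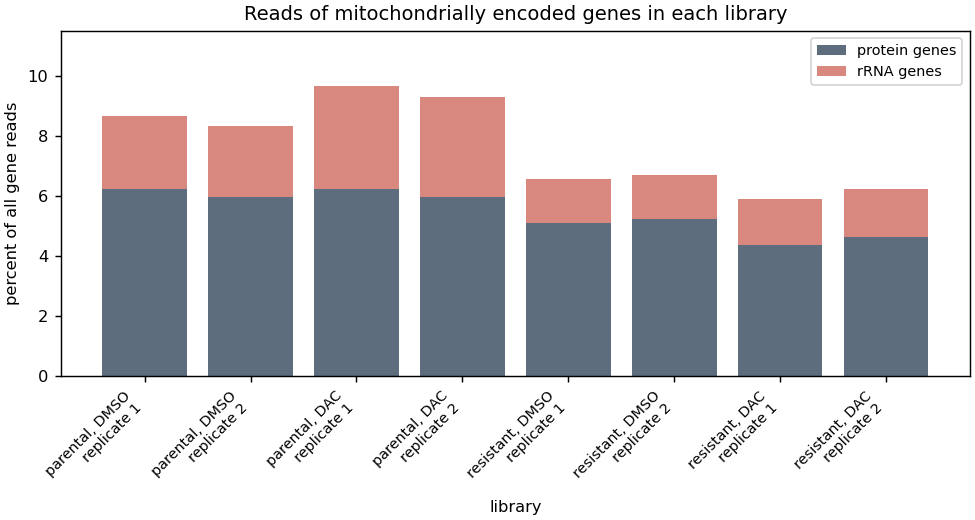
Percent of all gene reads (vertical axis) that fell on the 13 protein genes and, stacked on them, the 2 rRNA genes in each of the 8 libraries (horizontal axis). Parental DAC libraries have the tallest bars through their rRNA part, and the 4 resistant bars are all under the 4 parental ones.

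MT-RNR2, the rRNA of the large mitochondrial ribosomal subunit, was the most abundant member in parental DMSO libraries at 14528 ± 309 FPKM (SD, n = 2), and MT-CO1, the catalytic core of complex IV, followed at 10739 ± 271 FPKM. The protein genes spanned a 5.02-fold range of mean FPKM there, down to MT-ND6 at 2137 ± 87.7 FPKM, and a 3.92-fold range in resistant DAC libraries. MT-ND6 is the only protein gene of the light strand. Neighbours in this order that overlapped in the parental DMSO libraries were MT-ND4, MT-ATP6 and MT-CO2, then MT-RNR1, MT-CYB and MT-ND2, and MT-ND5 with MT-ND3. In resistant DMSO libraries MT-CO1 and MT-RNR2 overlapped at the top, with 9022 ± 185 and 8890 (8889.8 ± 128) FPKM, MT-ND1 stood under MT-ATP8, and MT-RNR1 came last at 1567 ± 23.1 FPKM.

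**Figure D2:**
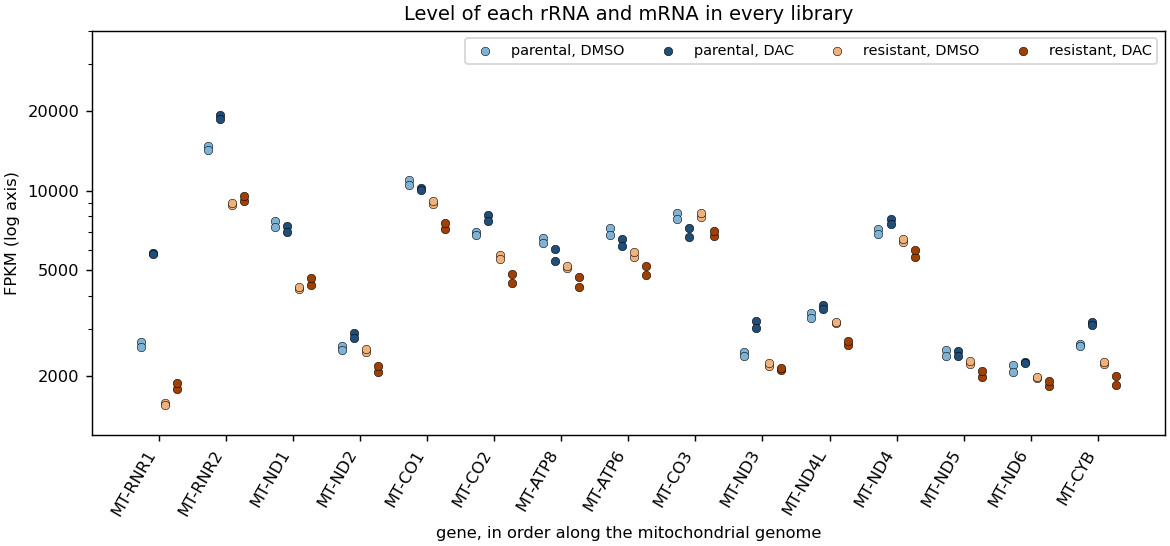
FPKM (log axis) of the 2 rRNA and 13 protein genes in order along the mitochondrial genome, 1 point per library, with the 4 groups in colours. MT-RNR1 is highest in the 2 parental DAC libraries (5796 and 5786 FPKM). MT-ND1, like every plotted gene other than MT-ND2 and MT-CO3, separates all parental from all resistant libraries.

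The largest change of an rRNA or protein gene under DAC in parental cells was the rise of MT-RNR1, the rRNA of the small mitochondrial ribosomal subunit. It was at 2684 and 2564 FPKM in the DMSO libraries and at 5796 and 5786 FPKM in the DAC libraries. The groups lay far apart, and the log2 fold change was 1.14 with a standard error of 0.0338 (2.21-fold, adjusted p = 1.02e-06, limma). MT-RNR2 rose less, from 14746 and 14309 to 19343 and 18653 FPKM, by 0.39 on the log2 scale (adjusted p = 0.000111). There were 5.54 ± 0.0615 FPKM of MT-RNR2 for each FPKM of MT-RNR1 in DMSO and 3.28 ± 0.0801 in DAC libraries. Both rRNA calls remained under every alternative setting and with each library left out. MT-RNR1 was also the only rRNA or protein gene with both p no higher than 0.01 and a log2 rise of 1 or more in this comparison, as had 6.66% of all genes.

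Nuclear RNAs without a poly(A) tail moved the same way in these libraries. RN7SL1, the RNA of the signal recognition particle, stood at 14.1 and 12.8 FPKM in parental DMSO and at 300.2 and 292 FPKM in parental DAC libraries (log2 fold change 4.36, adjusted p = 8.33e-06). In resistant cells it was at 3.07 and 4.56 FPKM with DMSO and at 8.70 and 5.46 FPKM with DAC. RNU11 and RNU4ATAC, small RNAs of the minor spliceosome, were the other 2 of 12 such genes that passed the filter, and all 3 were called higher with DAC in parental cells, where 33.6% of all genes were. With DAC in resistant cells none of the 3 was called, where 11.2% of all genes were. Their log2 fold changes there were 0.73 for RN7SL1, 0.71 for RNU11 and -0.55 for RNU4ATAC. Their part in the rRNA result was not tested.

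The mRNAs of parental cells divided under DAC. Of 13 protein genes 6 rose and 2 fell, beside 33.6% and 24.1% of all genes tested, and calls in either direction were about as frequent as over all genes (57.7%). Their median log2 fold change was 0.07 and that of all genes 0.06. MT-ND3, a complex I subunit, was at 2465 and 2384 FPKM with DMSO and at 3234 and 3045 FPKM with DAC, and rose by 0.37 (adjusted p = 0.000191). MT-CYB, the only complex III subunit in this genome, stood at 2634 and 2586 FPKM with DMSO and at 3197 and 3108 FPKM with DAC, and rose by 0.27 (adjusted p = 0.00122). MT-CO2, which takes electrons from cytochrome c in complex IV, moved from 6969 and 6824 to 8079.9 and 7655 FPKM, a rise of 0.19. No library of one treatment reached into the other for these 3 genes.

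Smaller rises were called for the complex I subunits MT-ND2 (0.16), MT-ND4 (0.12) and MT-ND4L (0.11). Falls were called for MT-CO3, a core subunit of complex IV, which was at 8259 and 7805 FPKM with DMSO and 7233 and 6698 FPKM with DAC (-0.21, adjusted p = 0.0103), and for MT-ATP8 (-0.18, adjusted p = 0.0423). Subunits of 1 complex therefore moved apart, as MT-CO2 rose and MT-CO3 fell while MT-CO1 had -0.08 (adjusted p = 0.0685). MT-ATP6, MT-ND1, MT-ND5 and MT-ND6 were not called, with values of -0.14, -0.06, 0.00 and 0.07. Of the 10 rRNA and protein gene calls here, those of MT-RNR1, MT-RNR2, MT-ND3 and MT-CYB remained in every alternative. Without parental DMSO replicate 2 or parental DAC replicate 1 only 2 protein genes were called higher, without parental DMSO replicate 1 or parental DAC replicate 2 none was called lower, and with upper-quartile scaling 2 were higher and 5 lower.

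DAC in resistant cells went with lower mRNA levels of small size. Of 13 protein genes 6 were called lower and 0 higher by limma, beside 5.35% and 5.88% of all genes (11.2% in either direction), and the median log2 fold change was -0.20 against 0.01 for all genes. At an unadjusted p under 0.05 the counts were 10 lower and 0 higher, and voom, the limma method for counts, called 11 lower and 1 higher on the recovered reads. MT-CO1 was at 8891 and 9153 FPKM with DMSO and at 7200.4 and 7539.5 FPKM with DAC. Both DAC libraries lay below both DMSO libraries, and the log2 fold change was -0.29 with a standard error of 0.0336 (adjusted p = 0.00491). The other calls were MT-CO2 (-0.27), MT-ND4L (-0.26), MT-ND2 (-0.23), MT-CO3 (-0.23) and MT-CYB (-0.22).

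In 12 of the 13 protein genes the DAC libraries of resistant cells lay under the DMSO libraries, an order that 26.4% of all genes showed, and MT-ND1 lay above, as did 29.9% of all genes. MT-ND1, a membrane subunit of complex I, was at 4247 and 4343 FPKM with DMSO and at 4405 and 4691 FPKM with DAC, and was not called (0.08, adjusted p = 0.306). MT-RNR1 rose slightly, from 1583 and 1551 to 1784 and 1877 FPKM (0.22, adjusted p = 0.0117), and MT-RNR2 had 0.07 (adjusted p = 0.245). The 3 genes at the start of the heavy strand were thus the only ones of the 15 with a value above 0. None of the 7 calls remained in every alternative. The count of lower protein genes was 1 without resistant DMSO replicate 1, 1 without resistant DMSO replicate 2, 2 without resistant DAC replicate 1, and 0 with no filter or with the 4 compared libraries fitted alone.

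Resistant cells differed from parental cells without drug most strongly at the start of the heavy-strand transcript. MT-RNR1, MT-RNR2 and MT-ND1 lie in that order with only MT-TV and MT-TL1 between them. MT-ND1 was at 7689.5 and 7277 FPKM in parental and at 4247 and 4343 FPKM in resistant DMSO libraries, lower by 0.80 on the log2 scale (0.574-fold, adjusted p = 1.73e-05). MT-RNR1 was at 2684 and 2564 FPKM in parental and at 1583 and 1551 FPKM in resistant libraries (-0.74, adjusted p = 7.45e-06). MT-RNR2 went from 14746 and 14309 to 8799.5 and 8980.1 FPKM (-0.71, adjusted p = 8.38e-06). The groups were far apart for each of the 3 genes, while the next protein gene, MT-ND2, overlapped between the lines at 2586 and 2507 against 2452 and 2526 FPKM (-0.03, 95% interval -0.12 to 0.06). Of the 3 untailed nuclear RNAs, RN7SL1 (-1.60) and RNU11 (-1.55) were also lower in resistant DMSO cells, where 26.2% of all genes were, and their part in the rRNA difference was not tested.

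**Figure D3:**
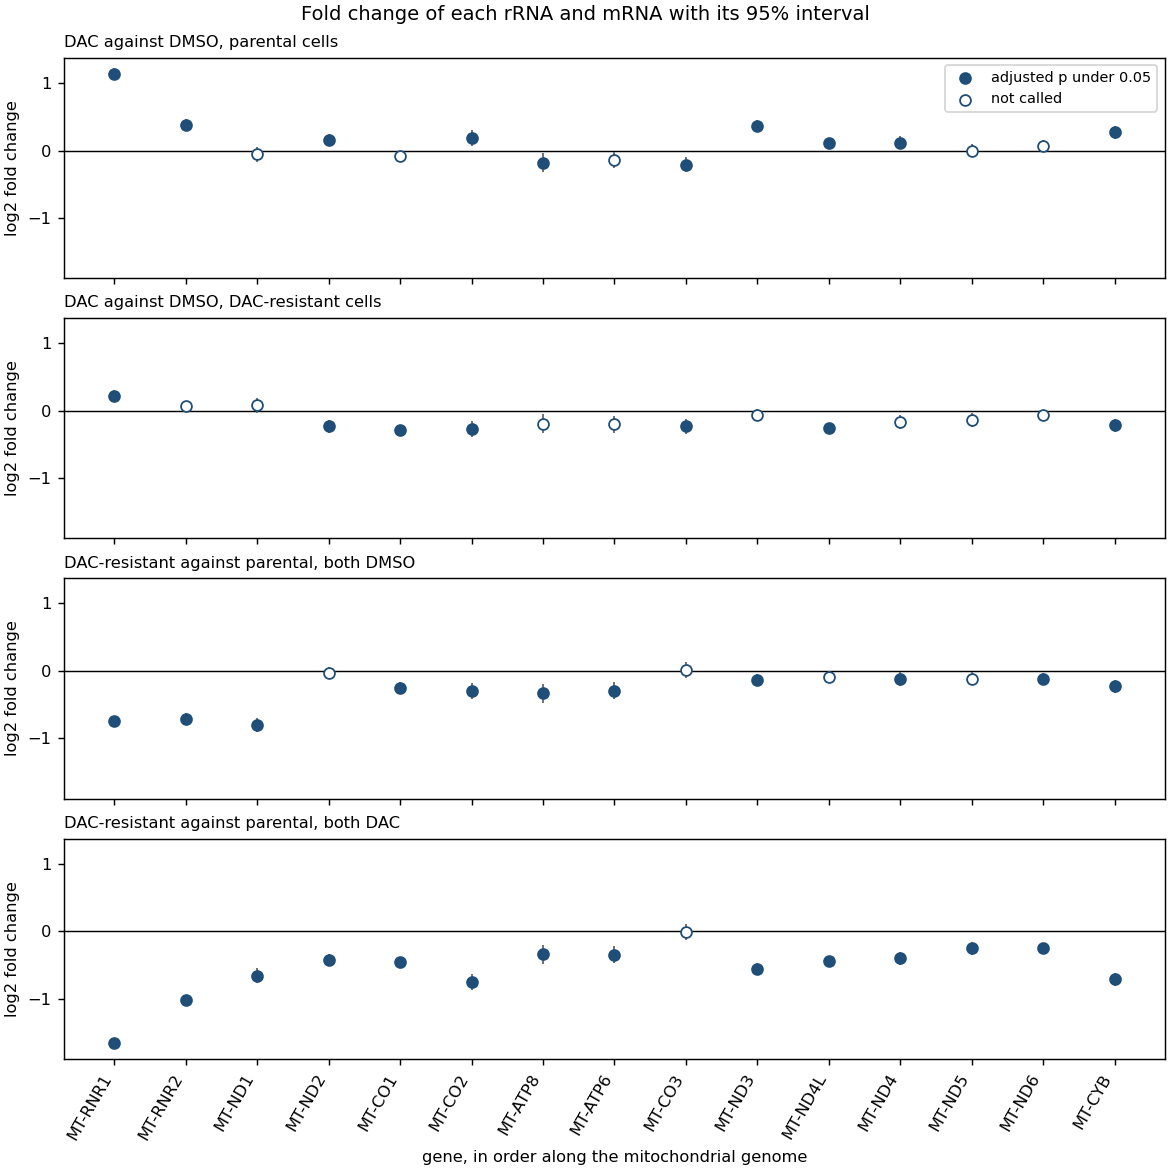
log2 fold change (vertical axis) of the 2 rRNA and 13 protein genes in genome order, 1 panel per comparison, with 95% intervals from limma and filled points where the adjusted p was under 0.05. In the third panel MT-RNR1, MT-RNR2 and MT-ND1 stand apart at -0.74, -0.71 and -0.80, and in the fourth only MT-CO3 is open.

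Across the 13 protein genes 9 were called lower in resistant DMSO cells and 0 higher by limma, beside 26.2% lower and 31.3% higher of all genes (57.5% in either direction). The unadjusted counts were 11 and 0, and those of voom 11 and 0. The median log2 fold change was -0.13, and 0.02 over all genes. After MT-ND1 the largest differences were in the ATP synthase genes MT-ATP8 (-0.33) and MT-ATP6 (-0.29) and the complex IV genes MT-CO2 (-0.30) and MT-CO1 (-0.25), followed by MT-CYB (-0.23), and those of MT-ND3, MT-ND4 and MT-ND6 were between -0.13 and -0.12. MT-CO3 had 0.01 with a 95% interval of -0.11 to 0.13, and MT-ND4L and MT-ND5 were not called at -0.08 and -0.11. The calls of MT-RNR1, MT-RNR2, MT-ND1, MT-ATP8, MT-ATP6, MT-CO2 and MT-CYB remained in every alternative, and those of MT-ND3, MT-ND4, MT-ND6 and MT-CO1 did not. Without parental DMSO replicate 1 or resistant DMSO replicate 1 the count was 6, and with no filter it was 5.

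The lines were farthest apart when both had been given DAC. By limma 12 of the 13 protein genes were lower in resistant cells and 0 higher, where 35.1% and 32% of all genes were (67% in either direction), with 12 and 0 at an unadjusted p under 0.05 and by voom. The median was -0.42, and -0.03 over all genes. MT-RNR1 was at 1784 and 1877 FPKM in resistant DAC and 5796 and 5786 FPKM in parental DAC libraries, a log2 difference of -1.66 (0.316-fold, adjusted p = 1.71e-07). MT-RNR2 differed by -1.03, from 19343 and 18653 to 9144 and 9516 FPKM (adjusted p = 9.80e-07). Both rRNAs and MT-TC had p no higher than 0.01 and a log2 difference of 1 or more downward, as had 9.17% of all genes. All 3 untailed nuclear RNAs were lower as well, RN7SL1 (-5.23), RNU11 (-1.83) and RNU4ATAC (-2.47), where 35.1% of all genes were, and their part here was not tested.

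Among the mRNAs MT-CO2 was lowest relative to parental cells, at 4468 and 4871 against 8079.9 and 7655 FPKM (-0.75, adjusted p = 1.67e-05). MT-CYB was at 1848 and 2000.05 FPKM against 3197 and 3108 FPKM (-0.71, adjusted p = 9.43e-06). Differences then ran through MT-ND1 (-0.66), MT-ND3 (-0.56), MT-CO1 (-0.46), MT-ND4L (-0.45), MT-ND2 (-0.42) and MT-ND4 (-0.41) to MT-ATP6 (-0.35), MT-ATP8 (-0.34), MT-ND6 (-0.26) and MT-ND5 (-0.26). All 14 rRNA and protein gene calls in this comparison remained under every alternative and with each library left out. The exception again was MT-CO3, which was at 6726 and 7039 FPKM in resistant and 7233 and 6698 FPKM in parental libraries. Those groups overlapped, and the 95% interval of the log2 difference was -0.13 to 0.10.

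The effect of DAC itself differed between the lines for 7 of 13 protein genes, each lower in resistant cells, and for both rRNAs, where the interaction was called lower for 28.4% and higher for 20.9% of all genes (49.3% in all). No protein gene had a higher interaction by limma (0 also at an unadjusted p under 0.05, and 1 by voom). The largest differences of log2 fold changes were -0.92 for MT-RNR1 (adjusted p = 2.04e-05), -0.49 for MT-CYB, -0.46 for MT-CO2 and -0.43 for MT-ND3. MT-ND2, MT-ND4L, MT-RNR2, MT-ND4 and MT-CO1 followed with values between -0.39 and -0.21. The calls of MT-RNR1, MT-CYB, MT-CO2, MT-ND3, MT-ND2 and MT-ND4L remained in every alternative, and that of MT-CO1 was lost without parental DAC replicate 1 (adjusted p = 0.0692) or parental DAC replicate 2 (adjusted p = 0.0518). The comparisons share their control groups, so their values are given side by side and not as independent evidence.

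The makeup of the mRNA pool, which does not depend on scaling between libraries, differed between the groups. MT-ND1 made up 10.8% ± 0.0940 of the summed FPKM of the 13 protein genes in parental DMSO, 10.4% ± 0.0238 in parental DAC, 7.31% ± 0.0110 in resistant DMSO and 8.83% ± 0.0159 in resistant DAC libraries (SD, n = 2). MT-CO3 took 11.6% ± 0.112, 10.0% ± 0.187, 13.8% ± 0.115 and 13.4% ± 0.140 in the same order. The first was smaller and the second larger in resistant cells with either treatment, with no overlap between the lines. MT-CO2 made up 9.96% ± 0.154, 11.3% ± 0.0283, 9.57% ± 0.345 and 9.06% ± 0.168, and was highest in parental DAC libraries. MT-ND3 went from 3.50% ± 0.0232 to 4.52% ± 0.0316 with DAC in parental cells and from 3.77% ± 0.0221 to 4.13% ± 0.106 in resistant cells. MT-ND5, the last heavy-strand gene of complex I, held 3.51% ± 0.0227, 3.51% ± 0.0104, 3.83% ± 0.0290 and 3.96% ± 0.0117. From parental to resistant DMSO libraries the other complex I genes also had larger shares, MT-ND2 from 3.68% to 4.24%, MT-ND4L from 4.88% to 5.43%, MT-ND4 from 10.2% to 11.03% and MT-ND6 from 3.09% to 3.35%, so that MT-ND1 alone of the complex I genes had a smaller one. Both ATP synthase genes had smaller shares there, MT-ATP8 at 9.37% and 8.78% and MT-ATP6 at 10.1% and 9.77%, and in parental DAC libraries they were at 8.27% and 9.18%.

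**Figure D4:**
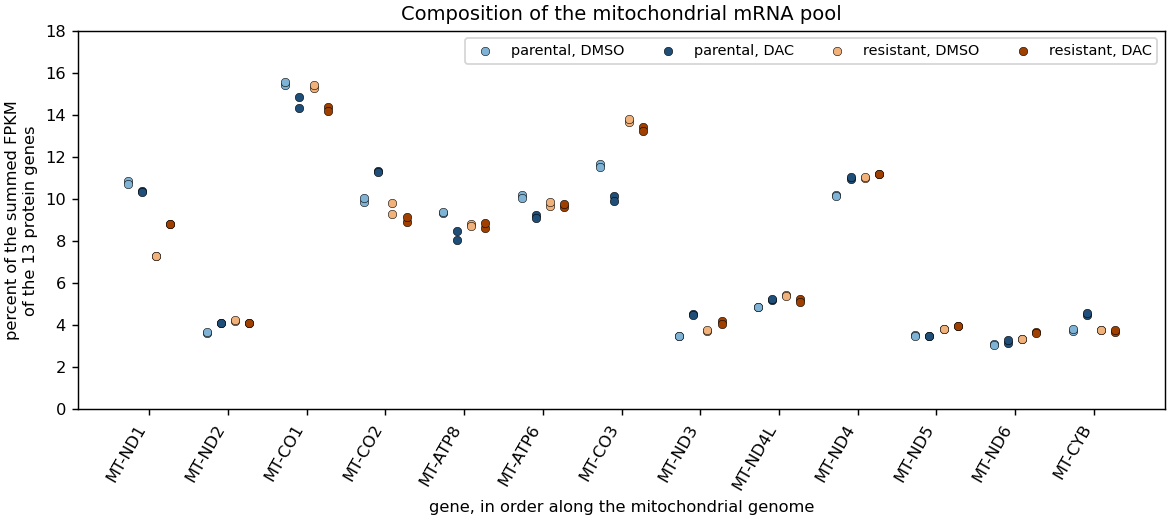
Each protein gene as percent of the summed FPKM of the 13 (vertical axis from 0), 1 point per library and groups in colours. MT-ND1 is near 7% in resistant DMSO and above 10% in parental libraries, and MT-CO3 is the reverse, above 13% in resistant libraries.

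Pairs of genes that lie near each other differed in how closely they moved. MT-ATP8 and MT-ATP6, which share bases and a transcript, stood at 1.08 ± 0.00996 FPKM of MT-ATP6 per FPKM of MT-ATP8 in parental DMSO, 1.11 ± 0.0340 in parental DAC, 1.11 ± 0.0216 in resistant DMSO and 1.11 ± 0.00761 in resistant DAC libraries. MT-ND4 and MT-ND4L, the other joint transcript, stood at 2.08 ± 0.00327, 2.103 ± 0.00260, 2.03 ± 0.0232 and 2.17 ± 0.0376. Both ratios stayed within narrow bounds. Whether reads over the shared bases were counted for both genes of a pair was not given in the sources used here. MT-ND1 and MT-ND2 are separated by tRNA genes only, and their ratio was 2.94 ± 0.0496 in parental DMSO, 2.53 ± 0.0114 in parental DAC, 1.73 ± 0.00873 in resistant DMSO and 2.14 ± 0.0121 in resistant DAC libraries. MT-CO2 and MT-CO3 are not direct neighbours, as MT-TK, MT-ATP8 and MT-ATP6 lie between them. Their ratio stood at 0.859 ± 0.0215, 1.13 ± 0.0183, 0.696 ± 0.0309 and 0.678 ± 0.0197. MT-ND6, transcribed from the light strand opposite to MT-ND5, was called lower in resistant cells in DMSO (-0.12) and under DAC (-0.26), and whether reads were counted by strand was not given in the sources used here.

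Of the tRNA genes only 4 had reads in every library, and they were few beside the mRNAs. MT-TP, the proline tRNA gene, had 1190 to 1723 reads and held 90.1% of all tRNA gene reads. It borders the control region, the longest stretch without a gene. MT-TC (cysteine) had 50 to 109 reads and lies beside a gap of 31 bases, MT-TF (phenylalanine) borders the control region on its other side, and MT-TY (tyrosine) lies beside a gap of 12 bases. MT-TN and MT-TK, next to gaps of 31 and 25 bases, were at 0. A further 10 tRNA genes had at most 20 reads in any library.

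MT-TP was at 626 and 577 FPKM in parental DMSO, 922 and 737 in parental DAC, 689.5 and 683 in resistant DMSO and 689.8 and 685 FPKM in resistant DAC libraries. The parental DAC libraries were highest and also farthest apart, and the rise with DAC in parental cells was called (0.46, adjusted p = 0.00659). MT-TC was at 47.3 and 38.0 FPKM in parental DMSO, 57.3 and 60.1 in parental DAC, 31.7 and 28.2 in resistant DMSO and 27.5 and 24.7 FPKM in resistant DAC libraries. It rose with DAC in parental cells (0.46, adjusted p = 0.0107, and 0.0687 without parental DAC replicate 2), and was lower in resistant cells with DMSO (-0.49) and with DAC (-1.14, adjusted p = 0.000121). Its call with DAC in parental cells and its call between the lines with DMSO were lost with voom. Of the 9 tRNAs tested 2 were thus called higher and 0 lower with DAC in parental cells, beside 33.6% and 24.1% of all genes, where limma gave 3 and 0 at an unadjusted p under 0.05 and voom 1 and 0. With DAC in resistant cells limma called 0 in either direction, where it called 11.2% of all genes. The count was also 0 at an unadjusted p under 0.05 and by voom.

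Between the lines 1 of the 9 tRNAs, MT-TC, was lower with DMSO, beside 26.2% of all genes, and 4 were lower with DAC, beside 35.1%, namely MT-TC, MT-TF, MT-TL1 and MT-TP. MT-TF stood at 29.7 and 17.4 FPKM in parental DAC and 12.4 and 8.28 FPKM in resistant DAC libraries (-1.10, adjusted p = 0.0219, and 0.136 without parental DAC replicate 1 and 0.116 without resistant DAC replicate 2). The MT-TL1 call rests on 8 and 20 reads against 2 and 2 and was lost without parental DAC replicate 2 (adjusted p = 0.129), resistant DAC replicate 1 (0.0724) or resistant DAC replicate 2 (0.0696). The MT-TP call between the lines (-0.26, adjusted p = 0.0479) was lost with each library other than parental DAC replicate 2 left out, with adjusted p of 0.0604 to 0.142, and without parental DAC replicate 1 the value itself was -0.10. Of the 32 tRNA values from 1 to 20 reads 31 were even numbers, beside 42.9% of such values over all genes, so these reads are not independent counts, and no counting interval or limit for a count of 0 is given for them.

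Nuclear copies of mitochondrial genes, pseudogenes from fragments of this genome inserted in chromosomes, held some of the same signal. Of the 413 such genes listed, 145 were above 0 and 10 had a mean of at least 1 FPKM. MTND2P28 (chr1:629640-630683, plus strand) is identical to MT-ND2 at 98.37% of 1042 aligned bases, with a longest identical run of 266 bases. The first base that tells them apart is shown in capitals with 20 bases on either side, at chrM:4716-4756 and chr1:629886-629926.
MT-ND2: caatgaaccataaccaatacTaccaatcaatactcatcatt
MTND2P28: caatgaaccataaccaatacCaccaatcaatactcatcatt

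MTND2P28 stood at 1351 and 1287 FPKM in parental DMSO, 1459.6 and 1409.9 in parental DAC, 1245 and 1311 in resistant DMSO and 1039 and 1127 FPKM in resistant DAC libraries. It followed MT-ND2 at 50.1% to 52.2% of its level in every library. MTATP6P1 (chr1:633696-634376), 98.53% identical to MT-ATP6, stood at 17.4% to 19.1% of MT-ATP6. The other copies of this rule were far lower relative to their genes, with MTCO1P12 at 0.124% to 0.147% of MT-CO1 and MTRNR2L2 at 0.0869% to 0.148% of MT-RNR2, and MTND4P12, MTND1P23, MTCO3P12, MTRNR2L8, MTCO2P2 and MTND6P5 had means between 1.04 and 2.52 FPKM. How reads that fit several places were assigned was not given in the sources used here, so the levels of MT-ND2 and MT-ATP6 are uncertain. Adding the copies' reads to these 2 genes changed no call of the 15 rRNA and protein genes.

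The nuclear genes that make and remove mitochondrial RNA changed in several directions. PNPT1, an exoribonuclease of the mitochondrial RNA degradosome that is also known as an interferon-stimulated gene, was at 9.79 and 9.18 FPKM in parental DMSO, 23.7 and 23.2 in parental DAC, 16.6 and 16.9 in resistant DMSO and 16.3 and 17.3 FPKM in resistant DAC libraries. It rose 2.33-fold with DAC in parental cells (adjusted p = 2.39e-06), was 1.69-fold higher in resistant than parental cells with DMSO, and had a log2 fold change of 0.00 with DAC in resistant cells. SUPV3L1, the helicase that works with it, was not called with DAC (0.10 in parental and 0.12 in resistant cells) and was higher in resistant cells with DMSO (0.25) and DAC (0.27). Of 5 degradation genes 4 were higher and 0 lower in resistant DMSO cells, beside 31.3% and 26.2% of all genes, and 3 were higher and 1, PNPT1 (-0.46), lower with DAC, beside 32% and 35.1%.

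**Figure D5:**
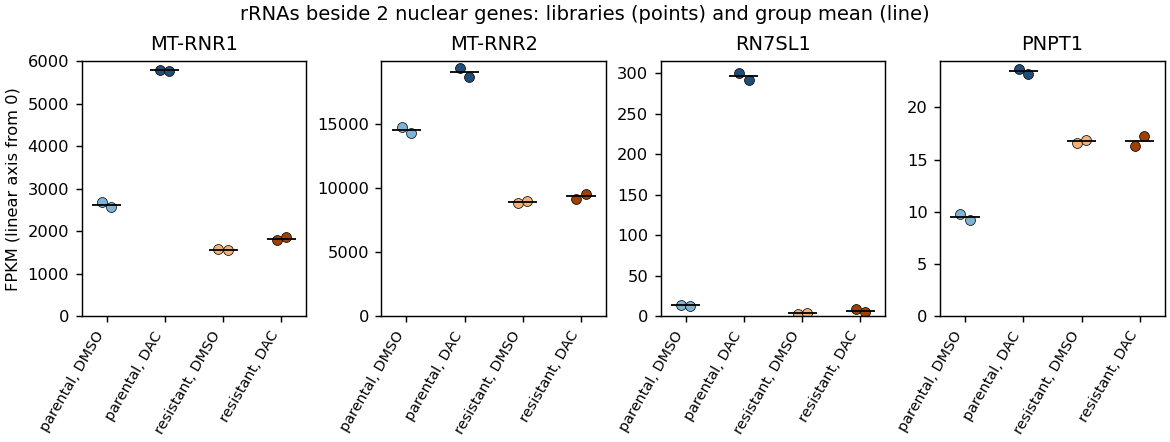
FPKM (linear axis from 0, a scale of its own for each gene) of the 2 mitochondrial rRNAs, the nuclear RN7SL1 and the nuclear PNPT1, with 1 point per library and a line at each group mean. All 4 are highest in parental DAC libraries, and PNPT1 alone is higher in resistant than in parental DMSO libraries.

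Among transcription factors of mitochondrial DNA, TFAM, which packages the genome and opens its promoters, was at 9.24 and 10.2 FPKM in parental DMSO, 12.5 and 11.3 in parental DAC, 12.5 and 13.2 in resistant DMSO and 12.8 and 13.9 FPKM in resistant DAC libraries. It was higher in resistant cells with DMSO (0.37, adjusted p = 0.00384). Its rise with DAC in parental cells (0.27, adjusted p = 0.0154) was lost without parental DMSO replicate 1 (0.0835) or parental DAC replicate 1 (0.0912). TFB2M, the initiation factor, rose with DAC in parental cells (0.72, adjusted p = 0.00245), and TFB1M, a methyltransferase of the small rRNA, fell (-0.57) and was higher in resistant cells under DAC (0.99). POLRMT was at 5.63 to 7.81 FPKM over all libraries and was called only between the lines with DMSO (0.31, adjusted p = 0.0268), a call lost without parental DMSO replicate 1 (0.0967), parental DMSO replicate 2 (0.0802) or resistant DMSO replicate 1 (0.137). Of the other 2 genes called higher between the lines with DMSO, TFB1M (0.28) was lost with any library other than resistant DMSO replicate 2 left out, and TFB2M (0.38) with any other than parental DMSO replicate 2, so that TFAM alone remained called without parental DMSO replicate 1 or resistant DMSO replicate 1. Of the 9 genes of this list 2 rose and 1 fell with DAC in parental cells, beside 33.6% and 24.1% of all genes, and 4 were higher and 1 lower in resistant DMSO cells, beside 31.3% and 26.2%.

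LRPPRC, which stabilises mitochondrial mRNAs and their poly(A) tails, was at 12.5 and 12.6 FPKM in parental DMSO and 9.19 and 9.23 FPKM in parental DAC libraries and fell (-0.40, adjusted p = 9.30e-05). In resistant cells it was at 12.8 and 12.9 FPKM with DMSO and at 13.5 and 13.1 FPKM with DAC (0.05, not called). TRMT10C, a subunit of the nuclease that cuts tRNAs out at their 5′ ends, was higher in resistant cells with DMSO (0.79, adjusted p = 0.000262) and DAC (0.56). FASTKD5, needed to process transcripts that no tRNA borders, was higher with DMSO (0.69), and FASTKD1 was lower with DMSO (-0.56) and DAC (-0.46). Of 15 tested genes of processing and stability 3 rose and 5 fell with DAC in parental cells, beside 33.6% and 24.1% of all genes, and 6 were higher and 1 lower in resistant DMSO cells, beside 31.3% and 26.2%. With DAC in resistant cells GRSF1, an RNA granule protein, was called higher (0.32) and TBRG4, which stabilises mitochondrial mRNAs, lower (-0.33). GRSF1 was lost without resistant DMSO replicate 1 (adjusted p = 0.0927) or replicate 2 (0.0786), and TBRG4 without resistant DMSO replicate 1 (0.0694), resistant DAC replicate 1 (0.0735) or resistant DAC replicate 2 (0.0537).

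For replication and nucleotide supply, TWNK, the helicase of the mitochondrial replication fork, rose with DAC in parental cells (0.74, adjusted p = 0.00444), as did RRM2B (0.47), the ribonucleotide reductase subunit of resting cells. RRM2B was lower in resistant cells under DAC (-0.55). PRIMPOL, a primase, and SLC25A36, a pyrimidine nucleotide carrier, fell with DAC in parental cells (-0.97 and -0.89), were lower in resistant DMSO cells (-0.52 and -0.50) and higher in resistant cells under DAC (0.59 and 0.66). TK2, which phosphorylates pyrimidine nucleosides in mitochondria, was lower in resistant DMSO cells (-0.51). In resistant cells DAC went with a call of SLC25A36 (0.27), lost without resistant DMSO replicate 2 (adjusted p = 0.0514) or resistant DAC replicate 2 (0.0586), and of POLG (-0.25), the replicative polymerase, lost without resistant DMSO replicate 1 (0.102), resistant DMSO replicate 2 (0.0740) or resistant DAC replicate 1 (0.0847). Of the biogenesis regulators MYC fell with DAC in parental cells (-0.88) and ESRRA rose (0.48), and under DAC MYC was higher (0.87) and ESRRA lower (-0.60) in resistant cells.

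Nuclear genes of the respiratory chain were called in both directions between the lines. Of 77 tested nuclear subunits of the respiratory chain and ATP synthase 36 were higher and 10 lower in resistant DMSO cells, with a median log2 fold change of 0.13, where the mitochondrial genes were 0 and 9 of 13. With both lines on DAC the nuclear counts were 29 higher and 21 lower (median 0.02), beside 0 and 12 of the mitochondrial genes. By complex, the nuclear genes higher and lower with DMSO were 15 and 5 of 36 in complex I, 4 and 0 of 4 in complex II, which has no mitochondrially encoded subunit, 3 and 2 of 9 in complex III, 7 and 0 of 11 in complex IV and 7 and 3 of 17 in ATP synthase. With DAC they were 9 and 14 (complex I), 2 and 1 (complex II), 4 and 2 (complex III), 8 and 1 (complex IV) and 6 and 3 (ATP synthase), so that in complex I more were lower than higher. With DAC against DMSO 31 of the 77 rose and 14 fell in parental cells, beside 33.6% and 24.1% of all genes, and 3 rose and 6 fell in resistant cells, beside 5.88% and 5.35%. Of 76 tested mitochondrial ribosomal protein genes, whose products bind the 2 rRNAs, 37 were higher and 7 lower in resistant DMSO cells, and 33 higher and 14 lower with DAC. The test of a difference between mitochondrial and nuclear lists was not run, and these counts are to be read against 31.3% higher and 26.2% lower of all genes with DMSO, and 32% and 35.1% with DAC. Those splits turn with scaling, from 4668 higher and 3906 lower to 3810 and 4717 with upper-quartile scaling (DMSO), and from 4765 and 5224 to 5644 and 4360 with TPM (DAC).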

How the data were processed

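RNA-seq was read from 8 libraries, 2 for each of 4 groups. Per the labels and methods the authors trimmed reads with Cutadapt 1.9.1, aligned them to hg38 with HISAT2 2.1.0 and counted them on Ensembl genes with HTSeq 0.13.5. The deposited unit is FPKM multiplied by 1000, and values were divided by 1000. The 37 genes were matched by Ensembl identifier to symbols (60463 of 60664 identifiers matched) because the deposited symbol column holds none that begins with MT-. The 1264 repeat families were not used.

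The test was limma 3.58.1 in R 4.3.3 on log2(FPKM + 1) over the 14899 genes that reached 1 FPKM in 2 or more libraries, with all 4 groups in 1 fit, a variance trend and Benjamini-Hochberg adjustment. A gene was called at an adjusted p under 0.05, and fold changes are on the log2(FPKM + 1) scale. The labels name the samples biological replicates without saying how cultures were separated, so p-values measure the spread between these samples only. Replicates were compared by counts and none agreed within sampling noise. Whole reads were recovered from FPKM with exon lengths of GENCODE 44 (88.3% of 39592 genes above 0 at the annotated length, and the others at another length, within 0.02 of a whole number), and their sums were 104.1% to 104.6% of the library totals implied by the authors' FPKM. The fit was tested on simulated data, but the outcome is not reported here and lends no support to the p-values.

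Named genes were all 15 rRNA and protein genes, the tRNAs past the filter, nuclear copies with a mean of at least 1 FPKM, 5 nuclear genes always, and up to 3 rises and 3 falls per comparison from 5 nuclear lists with groups that do not overlap. RN7SL1, RNU11 and RNU4ATAC came from a list of untailed RNAs. The members and lists were chosen with earlier results of these data known. Alternatives changed the pseudocount, filter, scaling, variance trend, replicate block, samples in the fit, tool and libraries. The result of 1 other marker list is not reported here.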

Additional observations from a re-analysis of the deposited data

Results flagged for a closer look

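The effect of DAC on a gene differed between resistant and parental cells, by the interaction term of limma at an adjusted p under 0.05, for 7350 of the 14899 genes tested (49.3%). Values are the log2 fold change with DAC in resistant cells minus that in parental cells. Among the mitochondrial genes it was lower for both rRNAs, 7 of 13 mRNAs and 2 of the 9 tRNAs tested and higher for 0, beside 28.4% lower and 20.9% higher among all genes. The rRNAs were MT-RNR1 at -0.92 and MT-RNR2 at -0.32, and the others were the complex I genes MT-ND2 (-0.39), MT-ND3 (-0.43), MT-ND4L (-0.36) and MT-ND4 (-0.28), the complex III gene MT-CYB (-0.49), the complex IV genes MT-CO1 (-0.21) and MT-CO2 (-0.46), and the tRNAs MT-TC (-0.65) and MT-TP (-0.45). The MT-TC difference was lost without parental DAC replicate 2 (adjusted p = 0.0557), with voom (0.224) and with no filter (0.0501), and that of MT-TP without parental DMSO replicate 2 (0.0930) or any single resistant library (0.0737 to 0.0797), with no filter (0.104), with upper-quartile scaling (0.0790) and with no variance trend (0.0527).

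Of the nuclear genes tested, the difference was called for 3 of 9 in mitochondrial transcription, 6 of 15 in RNA processing and 1 of 5 in RNA degradation. In replication and nucleotide supply it was called for 8 of 16 and in biogenesis for 5 of 8. These counts stand beside 49.3% of all genes. Among those named in the text, genes with a lower effect in resistant cells were PNPT1 (-1.22), TFB2M (-0.73), TWNK (-0.72), ESRRA (-0.71), TBRG4 (-0.55), FASTKD5 (-0.45), RRM2B (-0.45) and POLG (-0.36). The TWNK difference was lost with each of 5 single libraries left out (adjusted p = 0.0625 to 0.0772), and those of TFB2M (0.0560) and FASTKD5 (0.0522) without parental DAC replicate 2. Those with a higher effect were SLC25A36 (1.16), PRIMPOL (1.11), MYC (0.79), TFB1M (0.71), TK2 (0.70) and LRPPRC (0.45). The difference was also called higher for 15 and lower for 27 of 77 nuclear subunits of oxidative phosphorylation, beside 20.9% and 28.4% of all genes. Against the same shares it was called higher for 2 and lower for 4 of 7 monocytic markers, with LYZ at -2.26, MPO at -1.75, CSF1R at -0.99, SPI1 at -0.22, CD33 at 0.29 and HOXA9 at 0.36. It was called too for RN7SL1 (-3.63) and RNU4ATAC (-2.63). The epithelial marker KRT8 was also called (-0.88), but it passed the filter only through the parental DAC libraries (1.41 and 1.12 FPKM). Its call follows from that selection, and no conclusion is drawn from it. Groups of 2 libraries are too small for a test of single outlying samples.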

How the results depend on the processing

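Of 51 calls of rRNA and protein genes over the 5 comparisons 31 remained under every planned setting and with each library left out, as did 2 of 9 tRNA calls. With DAC in parental cells the counts of protein genes higher and lower (6 and 2) became 2 and 0 with no filter and 2 and 5 with upper-quartile scaling (median log2 fold change -0.046). They became 4 and 1 with a pseudocount of 0.1, no variance trend or the 4 compared libraries alone, 6 and 1 scaled by nuclear genes, 4 and 4 with TPM and 7 and 5 with voom. With DAC in resistant cells the lower count (6) became 0 with no filter or the 4 libraries alone, 2 with no variance trend, 10 with genes kept from a mean of 5 FPKM up and 11 with voom, which called 1 higher. Between the lines with DMSO it became 5 with no filter, and the median was -0.23 with upper-quartile scaling. With DAC the median was -0.30 with TPM. For the interaction 1 gene was higher with TPM, upper-quartile scaling and voom, and the median was -0.10 with upper-quartile scaling. The cause was not tested.

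With each library left out in turn, protein genes higher and lower ranged from 2 to 7 and 0 to 3 (DAC, parental), 0 to 0 and 1 to 6 (DAC, resistant), 0 to 0 and 6 to 11 (lines, DMSO), 0 to 0 and 12 to 12 (lines, DAC) and 0 to 0 and 6 to 8 (interaction). A group left with 1 library was assumed to vary like the others.

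Values that changed sign were of genes near 0 and not called, other than MT-ND4L. With DAC in parental cells MT-ND5 was -0.026 with TPM, -0.12 with upper-quartile scaling, -0.00276 with voom and -0.037 to 0.038 with a library left out, and with upper-quartile scaling MT-ND6 was -0.046 and MT-ND4L -0.011. Between the lines with DMSO MT-ND2 was 0.038 with TPM and MT-CO3 -0.011 scaled by nuclear genes, -0.088 with upper-quartile scaling and -0.032 to 0.0496 with a library left out. With DAC MT-CO3 was 0.11 with TPM and -0.072 to 0.039 with a library left out. For the interaction MT-ATP8 was 0.044 and 0.096 and MT-CO3 0.0305 and 0.083 with TPM and upper-quartile scaling, -0.088 to 0.064 and -0.081 to 0.0301 with a library left out, and MT-ATP6 0.0504 with upper-quartile scaling.

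Samples with the same replicate number did not deviate together (correlations of -0.02 to 0.02). These values cannot show whether such samples were cultured or processed together, which the labels do not say. With a replicate block the counts with DAC in parental cells became 4 and 1, and 5 rRNA and protein gene calls were lost. Over all genes, the split of higher and lower calls went from 5005 and 3588 to 3991 and 4615 with upper-quartile scaling (DAC, parental), from 876 and 797 to 1186 and 610 with TPM (DAC, resistant), from 4668 and 3906 to 3810 and 4717 with upper-quartile scaling (lines, DMSO), from 4765 and 5224 to 5644 and 4360 with TPM (lines, DAC), and from 3117 and 4233 to 3925 and 3499 with upper-quartile scaling (interaction). With DAC in resistant cells the 1673 calls became 831 with no filter, 998 with no variance trend, 434 with the 4 libraries alone and 2965 with voom.

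The share of summed FPKM (29.4%, 31.6%, 24.8% and 23.0% in the order of groups above) was 8.52%, 9.48%, 6.64% and 6.08% by reads, and 23.4%, 23.0%, 20.8% and 18.7% for the 13 protein genes alone. Adding reads of nuclear copies, an alternative chosen after seeing the data, changed no call of the 15 rRNA and protein genes. Few reads limit the precision of the tRNA values: 10 genes had at most 20 reads in any library.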
